A study of Mus musculus with 8 samples.

Results

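Broad m6A peaks are regions of 600 nt or more of exonic sequence in which antibody-enriched fragments exceeded the input. They were collected from mouse embryonic stem cells (ESCs) with and without induction of the transcription factor Dux. A peak was chosen by its length alone, the sum of its exon blocks in the deposited peak list. By this rule 913 of 18895 peaks of the DMSO list (4.83%, 95% Wilson interval 4.54 to 5.15) and 574 of 13001 peaks of the Dox list (4.42%, 4.08 to 4.78) were broad. Length is itself a readout of the peak caller, so lengths are given as a description.

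The cells were E14 ESCs that carried a doxycycline (Dox)-inducible Dux transgene together with a tdTomato reporter under the Mervl promoter. They were treated for 24 h with Dox, or with DMSO as the control, and both treatments used cells with both transgenes. Poly(A) RNA cut into fragments of 150 nt was immunoprecipitated with an m6A antibody (IP) and sequenced beside its input, which gave 8 libraries, 2 replicates for each of 4 groups (IP and input after DMSO, IP and input after Dox). Each treatment had 1 peak list over its libraries, so no spread between replicates could be computed, no test between treatments was made, and all intervals cover counting error only.

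N6-methyladenosine (m6A) is placed on mRNA by the Mettl3 and Mettl14 methyltransferase complex at short motifs around an adenosine, most often GGAC, and is read by YTH-domain proteins that steer the stability and translation of the transcript. It is known to gather around stop codons and in unusually long internal exons, and to be scarce close to splice junctions. In ESCs it is known to shorten the life of transcripts of pluripotency factors. Because fragments are longer than the motif, neighbouring modified sites can merge into 1 peak, so the length of a peak is no count of modified adenosines.

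Of the markers listed for each cell type, all 9 of ESCs carried a peak in both lists, and of the 15 of the state that resembles the 2-cell embryo (2C-like) 4 carried one in DMSO and 14 in Dox. No marker of endoderm (4 genes), neural cells (3) or feeder fibroblasts (3) carried a peak in either list. Over all 22028 protein-coding genes, 5968 carried a peak in DMSO and 4794 in Dox, so none among 3 or 4 genes says little. In such bulk RNA, fewer cells of a type, less RNA per cell and RNA present without m6A cannot be told apart.

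The sequence under a broad peak is shown for 7 of them, chosen as the longest (Ankrd11, Akap12), the one that was split most (Mki67), a long peak with few GGAC (Numa1), a pluripotency factor (Sox2) and peaks of the Dox list (Zscan4d, Usp17lc). Each line is the 120 nt of coding sequence within the peak and within 1 exon that held the most GGAC, 5′ to 3′ on the transcribed strand, from the RefSeq GRCm38.p6 (mm10) assembly, with GGAC in capitals. The windows lay at chr8:122893593-122893712, minus strand for Ankrd11; chr10:4355214-4355333, plus strand for Akap12; chr7:101998822-101998941, plus strand for Numa1; chr7:135697593-135697712, minus strand for Mki67. Those of the other 3 lay at chr3:34651118-34651237, plus strand for Sox2; chr7:11162787-11162906, minus strand for Zscan4d; chr7:103418239-103418358, plus strand for Usp17lc. The DMSO peaks are shown first.
Ankrd11: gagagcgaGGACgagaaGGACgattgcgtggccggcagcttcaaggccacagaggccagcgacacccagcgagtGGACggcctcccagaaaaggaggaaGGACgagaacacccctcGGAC
Akap12: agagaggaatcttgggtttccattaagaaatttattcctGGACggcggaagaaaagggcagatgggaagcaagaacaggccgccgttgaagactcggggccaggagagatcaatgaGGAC
Numa1: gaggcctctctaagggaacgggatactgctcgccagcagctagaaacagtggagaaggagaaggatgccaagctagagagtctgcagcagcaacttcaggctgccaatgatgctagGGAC
Mki67: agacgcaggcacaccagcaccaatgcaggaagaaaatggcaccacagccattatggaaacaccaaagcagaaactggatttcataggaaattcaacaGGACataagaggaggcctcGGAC
Sox2: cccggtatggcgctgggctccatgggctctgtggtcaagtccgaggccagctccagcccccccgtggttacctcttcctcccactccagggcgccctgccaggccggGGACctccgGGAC
The peaks of the Dox list follow.
Zscan4d: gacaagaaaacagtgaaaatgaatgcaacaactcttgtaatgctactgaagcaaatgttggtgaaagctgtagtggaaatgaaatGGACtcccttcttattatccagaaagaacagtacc
Usp17lc: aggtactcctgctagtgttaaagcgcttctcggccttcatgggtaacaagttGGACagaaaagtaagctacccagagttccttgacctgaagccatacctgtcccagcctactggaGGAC
The Ankrd11 window held 5 GGAC, and those of Akap12, Mki67, Sox2 and Usp17lc held 2 each. Numa1, with 4 GGAC in 2650 nt, and Zscan4d, with 3 in 1225 nt, had no coding window of this size within 1 exon with more than 1, and 1 of the 3 in Zscan4d spanned a splice junction.

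Broad peaks were few but held a larger share of the peak bases, which follows from choosing them by length. In DMSO they made up 836214 of 3618790 peak bases (23.1%), and in Dox 532321 of 2461438 (21.6%). Their median length was 775 nt (quartiles 650 and 1000) in the DMSO list and 800 nt (675 and 1068.75) in the Dox list, and 243 and 172 of them reached 1000 nt. The ratio of their numbers, DMSO over Dox, was 1.59 (1.43 to 1.77), beside list sizes that differed in the same direction. Lengths moved in steps of 25 nt, with 87 DMSO and 43 Dox peaks at exactly 600 nt and 99 and 71 peaks at 575 nt, the step below the threshold. Peaks on both sides of the threshold had like scores (the deposited score, read as −log10 p): in the DMSO list the median was 12.3 at 600 nt and 12.4 at 575 nt.

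**Figure D1:**
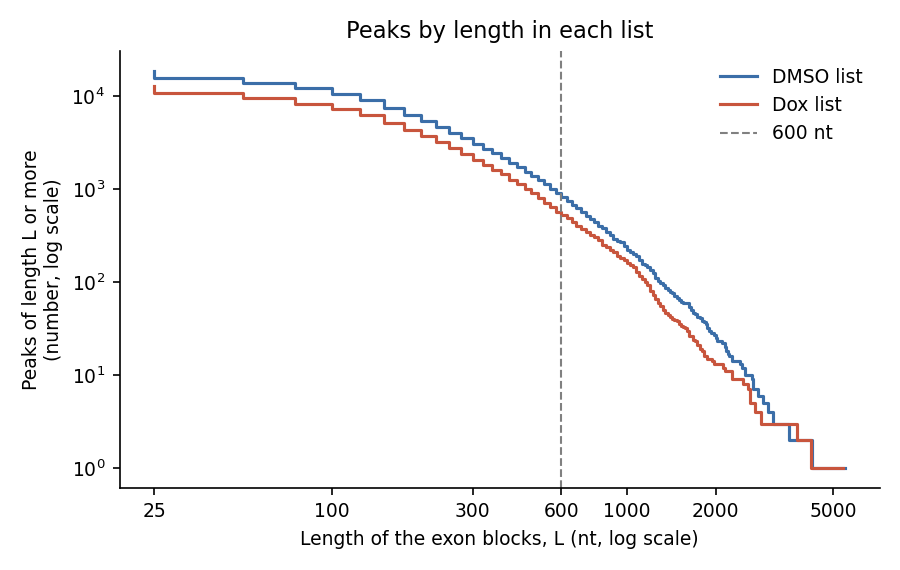
Number of peaks of length L or more (vertical axis, log scale) against L, the summed exon blocks in nt (horizontal axis, log scale), for the DMSO list (blue) and the Dox list (red), with 600 nt as a dashed line. The DMSO line lies above the Dox line at 600 nt, 913 against 574 peaks, and both lists end in Ankrd11 peaks of 5500 and 5425 nt.

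Of the longest broad peaks, some were of nearly the same length in both lists and others were much shorter in one of them. Ankrd11, which encodes a nuclear cofactor that binds histone deacetylases, carried the longest, 5500 nt in DMSO and 5425 nt in Dox, all of it coding sequence and 68.8% of the coding sequence of the gene in DMSO. Akap12, a scaffold of protein kinase A, followed with 4250 and 4200 nt. Spen, a transcriptional repressor that binds Xist RNA, had 3550 nt in DMSO and 2475 nt in Dox. Srrm2, a splicing factor of nuclear speckles, had 3125 nt in DMSO and 3775 nt in Dox, where 1 Dox peak lay over 2 DMSO peaks. Arid5b, a DNA-binding protein, had 3000 and 2575 nt, and Kat6b, a histone acetyltransferase, 2900 and 2850 nt. The 10 longest of the DMSO list were completed by L1td1, Tnrc6c, Scaf1 and Numa1. The 2775 nt peak of L1td1, an RNA-binding protein derived from a LINE-1 element, lay over 3 Dox peaks, the longest of 1700 nt. Tnrc6c, a partner of Argonaute proteins, had 2675 nt in DMSO, and its Dox peaks there were 1300, 1025 and 175 nt. Scaf1 had 2675 nt in DMSO over Dox peaks of 1675 and 925 nt, and Numa1, a spindle-pole protein, 2650 and 2625 nt. Those of the Dox list were completed by Gm4303 (2725 nt), Numa1 and Dag1 (both 2625 nt) and Epop (2289 nt), a Polycomb-associated protein. The Dag1 peak lay over 3 DMSO peaks, the longest of 1325 nt, and the Gm4303 peak over 2 DMSO peaks of 100 nt each. The blocks of the Gm4303 peak were spread over neighbouring gene copies, so its gene is uncertain.

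Genes that held several broad peaks mostly had long exons. In the DMSO list 134 of 723 genes with a broad peak had 2 or more, and in the Dox list 70 of 476. Their longest exon had a median of 2941 nt (quartiles 1888.75 and 4732) in DMSO and 2912 nt (2018.75 and 4337) in Dox, and it was below 1183 nt, the median over all protein-coding genes, in 12 and 4 of them. One of these was the centrosome gene Pcnt, with a longest exon of 846 nt and 3 broad peaks in each list. Ahnak, a giant scaffold protein with an exon of 17498 nt, and Fat1, an atypical cadherin, had 6 each in DMSO. In the Dox list Ahnak had 1 and Fat1 4. The 5-methylcytosine dioxygenases Tet1 and Tet2 had 4 and 3 broad peaks in DMSO and 4 each in Dox. The broad bases of Tet1 were 4975 in DMSO and 4325 in Dox. Zfhx2, a homeobox and zinc-finger gene, had 5 and 6, and Kmt2d, an H3K4 methyltransferase, 5 and 4. Dst, a cytoskeletal linker, had more in Dox, with 3 broad peaks in DMSO and 5 in Dox.

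Nearly all broad peaks had a peak of the other list over them, and in DMSO their share was well above that of all peaks. A Dox peak overlapped 912 of 913 broad DMSO peaks by at least 1 base on the same strand (99.9%, 99.4 to 100), where the share among all DMSO peaks was 57.0%. A DMSO peak overlapped 562 of 574 broad Dox peaks (97.9%, 96.4 to 98.8), beside 92.7% of all Dox peaks. A long interval meets another more easily than a short one. Peaks of 300 to under 600 nt were overlapped in 97.1% (DMSO) and 98.5% (Dox) of cases, and DMSO peaks under 100 nt in 21.3%. Counted in bases, 86.3% of broad DMSO sequence lay in a Dox peak, against 63.3% of all DMSO peak sequence. For broad Dox sequence the share in a DMSO peak was 93.8%, against 93.0% of all Dox peak sequence. With at least 50% of each of 2 peaks required, the overlap of broad DMSO peaks was 82.3%.

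Fewer broad peaks met a broad peak of the other list. The shares of the 2 lists divide nearly the same overlaps by unequal numbers, 913 broad DMSO and 574 broad Dox peaks, so they had to differ. Of the broad DMSO peaks, 499 (54.7%, 51.4 to 57.9) met a broad Dox peak, 294 (32.2%) met several shorter Dox peaks only, 119 (13.0%) met 1 shorter Dox peak and 1 met none. Of the broad Dox peaks, 511 (89.0%, 86.2 to 91.3) met a broad DMSO peak, 38 several shorter ones, 13 a single shorter one and 12 none. Among all peaks, 3.40% of DMSO peaks met a broad Dox peak and 11.7% of Dox peaks met a broad DMSO peak. Merged over both lists there were 974 broad loci, of which 497 were broad in both, 414 in DMSO only and 63 in Dox only. The share of broad DMSO peaks that met a broad Dox peak was 14.1% for those of 600 to 625 nt, 53.8% for longer ones under 1000 nt and 84.8% for those of 1000 nt or more. A peak near the threshold can leave the broad class through a loss of 1 or 2 steps.

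**Figure D2:**
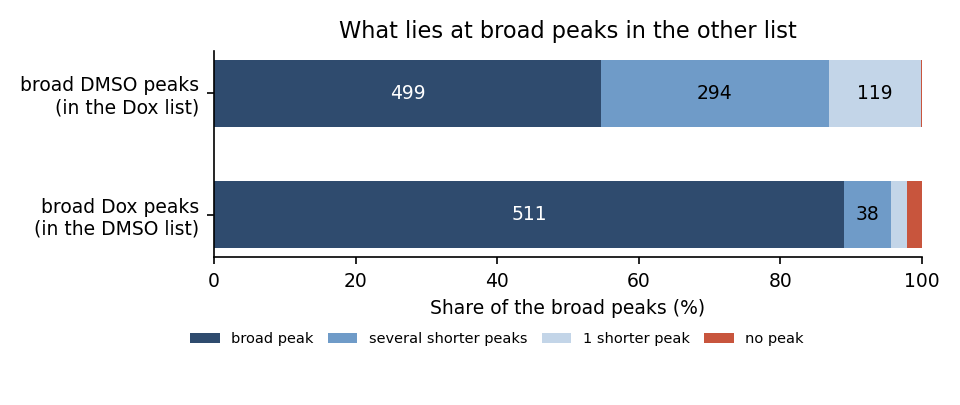
Share of broad peaks (horizontal axis, percent) that met a broad peak, several shorter peaks, 1 shorter peak or no peak in the other list, with the numbers printed in the wider bars. Of 913 broad DMSO peaks 499 met a broad Dox peak, and of 574 broad Dox peaks 511 met a broad DMSO peak.

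The DMSO peaks that met several shorter Dox peaks were cut by small gaps. The 294 peaks lay over 756 Dox peaks, whose median length was 200 nt (quartiles 75 and 350), and the gaps between the covered stretches had a median of 50 nt (25 and 100), with 363 of 462 (78.6%) at 100 nt or less. In 184 cases there were 2 Dox peaks and in 110 there were 3 or more. A peak of 2450 nt in Mki67, the proliferation antigen of chromosome surfaces, lay over 11 Dox peaks that covered 44.9% of it. Ahnak peaks of 2525 and 2200 nt lay over 7 Dox peaks each, with 72.3% and 81.8% covered. Others of this kind were found in Luzp1 (1675 nt over 3), Mmrn2 (1625 nt over 7), Asxl2 (1525 nt over 5), a Polycomb-associated gene, and Dido1 (1475 nt over 3). With peaks of a list joined across gaps of up to 50 nt within an exon there were 1156 and 728 broad peaks, and then 57.4% of broad DMSO peaks met a broad Dox peak. The reverse, a broad Dox peak over several shorter DMSO peaks, was seen 38 times, with at most 4 DMSO peaks.

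Where a single DMSO peak and a single Dox peak met only each other, the DMSO peak was usually the longer by a small margin. There were 490 such pairs with a broad member. The DMSO peak was longer in 366, the Dox peak in 51, and both had the same length in 73, of which 59 had the same blocks. In the 119 pairs broad in DMSO only and the 13 broad in Dox only, the length rule fixed which peak was longer. In the 358 pairs that were broad in both lists, the DMSO peak was longer in 247 and the Dox peak in 38. Their median difference was 25 nt (quartiles 0 and 75), a single step. The largest differences towards DMSO were in Ddx28 (700 against 125 nt), an RNA helicase of mitochondria, Cenpf (650 against 100), a kinetochore protein, Mtus1 (875 against 350), Pakap (725 against 275) and the noncoding RNA Malat1 (625 against 200). The largest towards Dox were in Zscan4d (25 nt in DMSO and 1225 in Dox), Gm5662 (175 and 1000), Gm2016 (175 and 825), Gm4027 (150 and 750) and BB287469 (150 and 700). All 5 of these belong to the Zscan4 cluster of chromosome 7 or to a cluster of similar genes on chromosome 12.

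**Figure D3:**
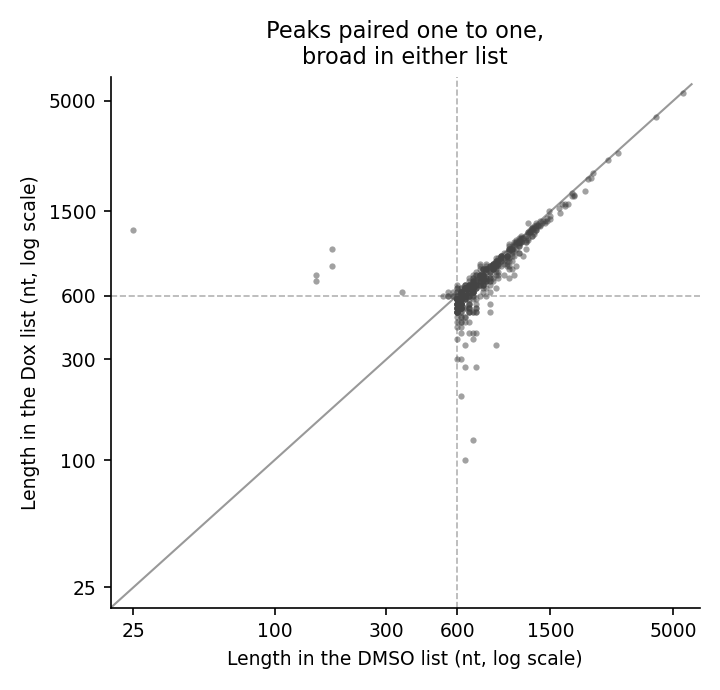
Length in the Dox list (vertical axis, nt, log scale) against length in the DMSO list (horizontal axis, nt, log scale) for the 490 pairs of peaks that met only each other and were broad in at least 1 list, with the line of equal length and dashed lines at 600 nt. Most points lie on or just below the line, 366 of them below it, and the 5 points far above it are Zscan4d and the 4 genes of chromosome 12.

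Many broad Dox peaks without a broad DMSO counterpart lay in multicopy gene clusters, though most lay outside the clusters named here. The 12 that no DMSO peak met were in Usp17lc (1300 nt), Zscan4a (1175), Gm4308 (1125), Gm4312 (914), Gm4971 (900), Usp17ld (900), Usp17le (825) and Gm8300 (800), followed by 4931428L18Rik, Usp17la, Tmem92 and Gm4301 with 625 to 700 nt. Usp17l genes encode deubiquitinases and Zscan4 genes encode zinc-finger proteins, and both are known to be switched on by Dux. Of the 63 peaks with no broad DMSO counterpart, 5 lay in the Zscan4 cluster (Zscan4a, Zscan4b, Zscan4c, Zscan4d and Zscan4f) within 0.608 Mb of chromosome 7. A further 4 lay in the Usp17l genes of the same chromosome and 5 in the cluster of chromosome 12. In 2 clusters of Gm-numbered genes on chromosome 10 there were 11, 4 in the one and 7 in the other. The scores of Zscan4b (119.97) and Zscan4f (112.5) were the highest of all broad peaks. In the DMSO list the only broad peak that no Dox peak met was in Xist, the noncoding RNA of X inactivation, 1125 nt with no GGAC.

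Reads of near-identical copies cannot be assigned with certainty. Of the broad peaks, 35 in DMSO and 44 in Dox matched a second genomic locus at 98% identity or more along 90% or more of their length. Among the 63 Dox peaks with no broad DMSO counterpart this was so for 21, including Zscan4b, Zscan4c and Zscan4f, all 11 peaks of the chromosome 10 clusters and 4 of the 5 of chromosome 12. It was so for none of the 4 Usp17l peaks. Without all such peaks, 92.1% of broad Dox peaks met a broad DMSO peak.

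**Figure D4:**
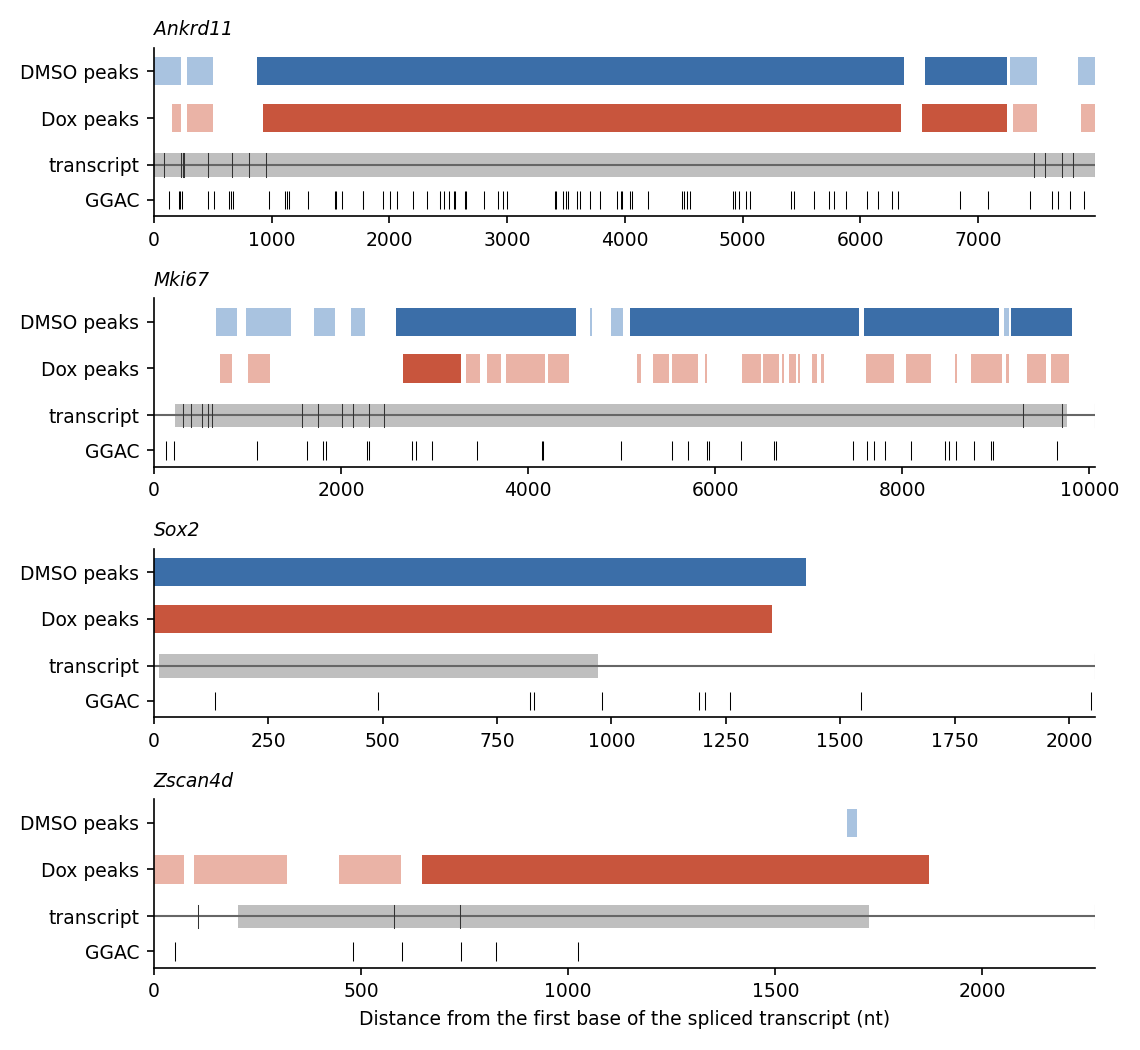
Peaks along the spliced transcripts of Ankrd11, Mki67, Sox2 and Zscan4d, with the distance in nt from the first base of the transcript on the horizontal axis. Each map shows DMSO peaks (blue) and Dox peaks (red) with broad ones in the dark shade, the transcript as a line with its coding sequence in grey and exon junctions as thin bars, and each GGAC as a black tick. The Ankrd11 and Sox2 peaks were alike in both lists, the 2450 nt DMSO peak of Mki67 lay over 11 Dox peaks, and Zscan4d had 25 nt in DMSO and a broad peak of 1225 nt in Dox.

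Broad peaks lay mainly in coding sequence, more so than shorter peaks. Of their bases in protein-coding genes, 85.1% (DMSO) and 85.3% (Dox) were coding, 13.8% and 12.9% were 3′UTR and 1.16% and 1.82% were 5′UTR. In DMSO peaks of 100 to under 300 nt, 69.9% of bases were coding and 26.8% 3′UTR. Of the broad peaks of protein-coding genes, 421 of 899 in DMSO and 258 of 564 in Dox lay wholly in coding sequence, and 25 and 10 wholly in a 3′UTR. The first base of the stop codon was inside 300 of 894 DMSO peaks with an annotated stop codon (33.6%, 30.5 to 36.7) and 211 of 560 Dox peaks (37.7%, 33.8 to 41.8). For peaks of 300 to under 600 nt the shares were 30.5% (DMSO) and 31.7% (Dox), and a longer peak holds a given base more easily. The broad peaks with the stop codon inside leaned towards the coding side. Their medians were 552.5 nt of coding sequence and 237 nt of 3′UTR in DMSO and 597 and 226 nt in Dox. At least 90% of a coding sequence was in a single broad peak in 23 cases in DMSO and 33 in Dox.

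Sox2 was such a case, a single-exon gene for a pluripotency factor whose peak (1425 nt in DMSO, 1350 nt in Dox) began at the first base of the transcript and ran past the stop codon. Epop was another: its Dox peak of 2289 nt held all 1110 bases of the coding sequence with 421 nt of 5′UTR and 758 nt of 3′UTR, and 2 DMSO peaks met it, the longer of 1675 nt.

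The exon that held most of a broad peak was usually long. In DMSO 491 peaks (53.8%, 50.5 to 57.0) and in Dox 341 (59.4%, 55.3 to 63.3) were 1 block without a splice junction. Broad peaks crossed a junction more often than shorter ones, in 46.2% (DMSO) and 40.6% (Dox) of cases. For peaks of 300 to under 600 nt the shares were 38.3% and 30.9%. The exon that held most of the peak had a median length of 1668 and 1661 nt. It was the last exon of its transcript for 422 of 907 DMSO peaks (46.5%) and 291 of 569 Dox peaks (51.1%), and an internal exon for 454 (50.1%) and 256 (45.0%). Genes with a broad DMSO peak had a median coding length of 2472 nt, beside 1455 nt for genes with shorter peaks only, and their longest uninterrupted stretch of coding sequence was 906 nt, beside 282 nt. A peak of 600 nt needs room, so part of this difference is fixed by the length rule. Their exon numbers were close, with medians of 11 and 10.

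Within internal exons of at least 1000 nt that a broad peak touched, the 2 ends were covered unequally. In the 185 such exons of the DMSO list, the first 50 nt after the upstream junction were covered by broad peaks in 23.1% of bases and the last 50 nt before the downstream junction in 40.8%. In the 119 exons of the Dox list the values were 18.5% and 30.7%. At 450 to 500 nt from the junction the DMSO values were 64.0% and 77.6%. An interval that lies inside an exon leaves its ends uncovered by geometry, so the rise with distance is no finding. These exons were chosen because a broad peak touched them, and a spliced peak can run across a junction. What made the 2 ends differ was not tested.

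GGAC was denser in broad peaks than in the rest of the same transcripts. The broad DMSO peaks held 5.68 GGAC per kb, against 3.58 in the sequence of their transcripts outside every peak of both lists, a ratio of 1.59 (1.53 to 1.65). In Dox the densities were 5.98 and 3.54 and the ratio 1.69 (1.61 to 1.77). The reverse complement GTCC, which has the same base composition on the opposite strand, gave 1.08 in both lists. Base composition and codon use differ between coding and untranslated sequence, and within coding sequence alone the GGAC ratio was 1.27 (1.22 to 1.32) in DMSO and 1.33 (1.26 to 1.41) in Dox, beside 1.01 and 0.97 for GTCC. The wider consensus DRACH (A, G or T, then A or G, then AC, then A, C or T), which includes GGAC followed by A, C or T, gave 1.23 and 1.24 over whole transcripts. Taken transcript by transcript, the peak was the denser part in 531 of 713 transcripts in DMSO and 348 of 457 in Dox.

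Motif density was not higher in longer peaks. In DMSO, GGAC ran at 7.05 per kb in peaks under 100 nt and 6.47 in those of 100 to under 300 nt, and the broad peaks were below both. A broad peak held a median of 5 GGAC (quartiles 3 and 7). Neighbouring GGAC of the same broad peak were 89 nt apart at the median in DMSO and 86 nt in Dox, beside a fragment length of 150 nt. This spacing was not compared with that in shorter peaks or outside peaks. The longest stretch without GGAC had a median of 354 and 343.5 nt. Ankrd11 was the richest in number with 60 GGAC (10.9 per kb), and Wdr33, a polyadenylation factor, the densest in DMSO with 15 in 675 nt (22.2 per kb). There were 22 DMSO and 13 Dox broad peaks with no GGAC, the longest in Xist and in the polyubiquitin gene Ubb (1000 nt, Dox), and none without a DRACH motif. Density was higher away from the ends: 5.93 per kb in the inner part of DMSO peaks and 4.77 within 100 nt of an end, and 6.11 and 5.35 in Dox.

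**Figure D5:**
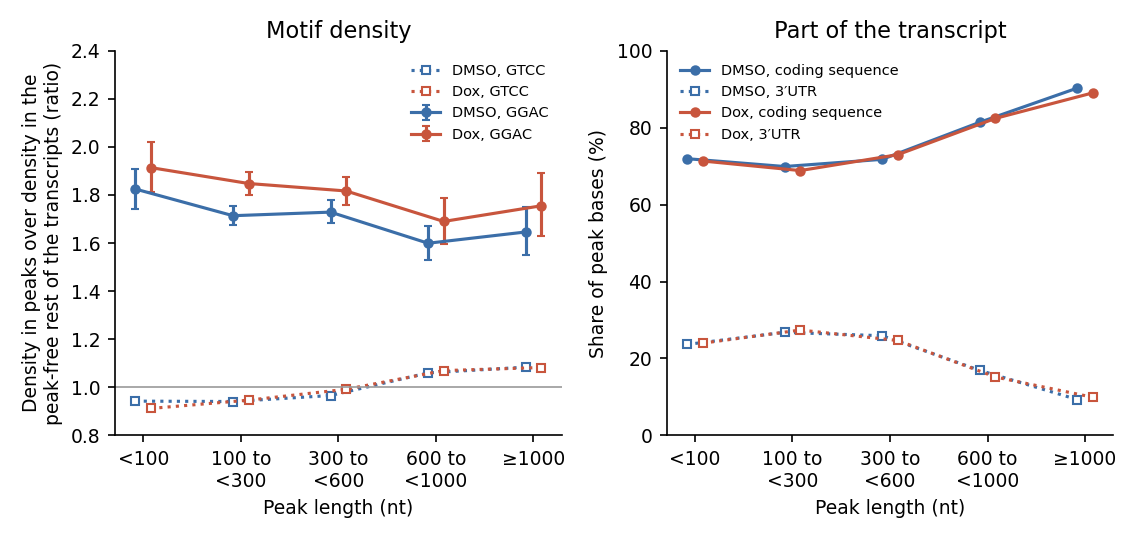
Left, motif density in peaks divided by the density in the rest of the same transcripts outside all peaks (vertical axis, ratio) by peak length class (horizontal axis, nt), for GGAC (filled points, bars are 95% intervals from counts) and its reverse complement GTCC (open squares). Right, share of peak bases in coding sequence (filled points) and 3′UTR (open squares) in percent by length class. GGAC ratios were above 1 in every class, and the coding share was higher in the classes from 600 nt.

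The parts of broad DMSO peaks that Dox peaks also covered were the richer in GGAC. Over the 912 broad DMSO peaks that met a Dox peak, the covered 721390 bases had 6.02 GGAC per kb and the other 113699 bases had 3.54, a ratio of 1.70 (1.53 to 1.88), while GTCC gave 0.99 (0.90 to 1.10). Peak-free sequence of the same transcripts had 3.58 per kb, and 4.44 in its coding part alone. The ratio was 2.05 (1.68 to 2.49) where the Dox peak was also broad and 1.60 (1.39 to 1.84) where there were several shorter Dox peaks. Of the 62100 uncovered bases in these latter peaks, 56.2% lay in gaps between Dox peaks and 43.8% at the ends. Over all 912 peaks, 52.2% of uncovered and 17.1% of covered bases lay within 100 nt of an end, where density was lower in any case, and the share of this in the ratio was not tested. In the reverse comparison, over the 562 broad Dox peaks that met a DMSO peak, only 22500 bases were uncovered. There the GGAC ratio was 1.41 (1.15 to 1.73), but that of the control GTCC was 1.53 (1.18 to 1.99) and that of DRACH 1.05 (0.96 to 1.14), so the Dox peaks gave no ratio particular to GGAC.

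Transcripts of pluripotency genes carried broad peaks in both lists. Of the 21 listed, all had a DMSO peak and 11 a broad one, and 20 had a Dox peak and 8 a broad one. Among all protein-coding genes with a peak, 713 of 5968 (11.9%) in DMSO and 467 of 4794 (9.74%) in Dox had a broad one. The 8 in both lists were Sall4, Tbx3, Klf4, Mycn, Sox2, Klf2, Zfp42 and Klf5. Sall4, a zinc-finger partner of Oct4 and Nanog, had 2 broad peaks in each list, the longest being 1200 nt (DMSO) and 1825 nt (Dox). Tbx3, a T-box factor, also had 2 in each, with 1025 nt in DMSO and 1725 nt in Dox, where 1 Dox peak lay over 3 DMSO peaks. The longest peak of Mycn had 2025 nt in DMSO and 1525 nt in Dox, that of Zfp42 (Rex1) 1250 and 975 nt and that of Klf5 1125 and 825 nt. Klf4 differed by a step of 25 nt, with 1050 and 1075 nt. The 3 with a broad peak in DMSO only were Esrrb (900 nt, longest Dox peak 550 nt), Utf1 (825 and 400) and Nr5a2 (625 and 350).

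The 2C genes had broad peaks in the Dox list alone. Of 24 listed genes found in the annotation, 4 had a DMSO peak and none a broad one, whereas 17 had a Dox peak and 11 a broad one, 11025 nt in all. Over all protein-coding genes with a peak, 11.9% in DMSO and 9.74% in Dox had a broad one. At that DMSO share, none among 4 genes says little. In DMSO their longest peaks were 300 nt in Zscan4c, 275 nt in Zscan4f, 175 nt in Zscan4b and 25 nt in Zscan4d, and in Dox these reached 1225, 1175, 1075 and 1225 nt. Dux itself, which the annotation lists as Duxf3 on chromosome 10, had no DMSO peak and 4 Dox peaks of 25 to 300 nt, none of them broad, and reads of the transgene and the native gene cannot be told apart here. The level of these transcripts in the input was not part of the lists, and a peak can be called only where the transcript is present. The list was drawn up with earlier results of these data known, and its direction is no independent evidence.

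Genes of the m6A machinery were among the carriers of broad peaks. Of 19 listed genes, 8 of the 16 with a DMSO peak and 7 of the 17 with a Dox peak had a broad one (50% and 41.2%, beside 11.9% and 9.74% over all protein-coding genes with a peak). Their median longest exon was 1929 nt, beside 1183 nt over all protein-coding genes. The writer-complex subunits Rbm15 (1850 and 1775 nt in DMSO and Dox), Zc3h13 (1500 and 650), Cbll1 (1000 and 975) and Rbm15b (950 and 875) were among them. All 3 Ythdf readers were too, Ythdf1 with 1100 and 1075 nt, Ythdf2 with 1100 and 900 nt and Ythdf3 with 1050 and 750 nt. Cnot1, the scaffold of the CCR4-NOT deadenylase complex, had 600 nt in DMSO, at the threshold, and 300 nt in Dox. The longest peak of each of the 8 was longer in the DMSO list. All 8 had a broad peak there, and for Cnot1 the length rule fixed the direction, so the direction is no independent evidence. Among the 358 one-to-one pairs broad in both lists, the DMSO peak was longer in 247 and the Dox peak in 38. The catalytic subunit Mettl3, its partner Mettl14 and the other listed YTH readers, Ythdc1 and Ythdc2, had no broad peak.

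Histone-modifying and remodelling genes, which are long, were also among the carriers. The 25 listed histone lysine methyltransferases and demethylases all had peaks in both lists. A broad peak was found in 9 of them in DMSO (36%) and in 6 in Dox (24%). Over all protein-coding genes with a peak the shares were 11.9% and 9.74%. Nsd1, an H3K36 methyltransferase, had 3 broad peaks in DMSO and 2 in Dox, the longest of 2100 and 1875 nt. Of 27 remodeller and bromodomain genes with a peak, 17 had a broad one in DMSO (63.0%) and 11 in Dox (40.7%). Bptf, the reader subunit of the NURF complex, had 4 and 3, the longest being 1925 and 950 nt. Ep300 and Crebbp, the paired histone acetyltransferases, had longest peaks of 2150 and 1975 nt in DMSO and of 1250 and 1200 nt in Dox. Arid1a, a BAF subunit, had 1 broad peak in DMSO and 2 in Dox. The median longest exon was 2203 nt over the 25 and 2143 nt over the 29 listed remodellers, beside 1183 nt over all protein-coding genes. How far exon length sets these counts was not tested.

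Zinc-finger genes had a broad peak in 30 of 185 with a peak in DMSO and 20 of 132 in Dox (16.2% and 15.2%), a little above the 11.9% and 9.74% over all protein-coding genes, with a median longest exon of 2533 nt. The carriers included Zfp532, Zfp646, Zfp106 and Zfp217. Of the Sox genes only Sox2 had one, among 4 with a peak in DMSO and 6 in Dox. Of 12 Fox genes with a peak in DMSO, Foxd3 (950 nt), Foxo3 (600 nt) and Foxo1 (650 nt) had a broad one. Of 11 in Dox, Foxd3 (750 nt) and Foxo3 (650 nt) did, and the longest Foxo1 peak was 325 nt. Genes of cytosolic ribosomal proteins, which have short exons, were at the other end: none of 69 with a peak had a broad one in DMSO and 1 of 64 in Dox, Rpl10l (775 nt), an intronless copy.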

How the data were processed

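Reads were filtered with fastp 0.19.4 and aligned to mm10 with HISAT2 2.2.1 per the labels, and the authors called m6A peaks on IP against input with exomePeak2, for which version, thresholds and the handling of replicates are not given in the sources used here. The deposited lists hold 1 row per peak with exon blocks and a score, read as −log10 p (at least 10.0 in both lists); the column is not named. No reads, counts or library depths were part of the lists, so depth is unknown.

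Peaks of both lists were compared by shared bases on the same strand and assigned to the GENCODE M21 gene with the most shared exonic bases, using the transcript with the longest coding sequence. Sequence was read from RefSeq GRCm38.p6 with pysam 0.24.0, and other loci were searched with blastn 2.17.0. Intervals are 95% Wilson intervals or, for density ratios, intervals from the motif counts. Functions were tested on simulated peaks with known answers.

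The rule for named genes took the 10 longest peaks per list, genes with several broad peaks, peaks that no peak of the other list met, the pairs that differed most and members of listed gene families. Wdr33, Ubb, Luzp1, Mmrn2, Asxl2, Dido1, Pcnt and Duxf3 were named after their values were seen. Genes Rps6k, which encode kinases, were not counted as ribosomal. Members and lists were chosen with earlier results of these data known.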

Additional observations from a re-analysis of the deposited data

How the results depend on the processing

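The 11 shares and ratios were recomputed under 16 other settings, and 67 of 101 values stayed within the 95% interval of the value in the report, with the cause of each other change not tested unless the setting itself gives it. None of the 3 ratios crossed 1. A threshold of 800 nt gave 83.5% for broad Dox peaks that met a broad DMSO peak, and 50% (DMSO) and 55.3% (Dox) for peaks within 1 exon. Counting the whole span with introns admits short spliced peaks: the ratio of numbers was 1.77, a Dox peak overlapped 74.1% of broad DMSO peaks, a broad one 50.5% of them, and a broad DMSO peak 92.1% of broad Dox peaks. With spans the stop codon was inside 17.5% and 19.5%, 11.2% and 13.7% lay within 1 exon, and the GGAC ratios were 1.52 and 1.61 (DMSO, Dox). Keeping peaks of both lists with a score of at least 11.6, the DMSO median, left 84.6% of broad DMSO peaks met by a Dox peak and 50.5% by a broad one, and 90.1% and 83.5% for broad Dox peaks. An overlap of at least 50% of both peaks gave 82.3% and 88.2% for any peak and 84.1% for broad Dox peaks met by a broad DMSO peak. An overlap of at least 50% of the broad peak gave 96.6% and 95.6%. For broad Dox peaks met by a broad DMSO peak, joining peaks across gaps gave 91.5% and leaving out near-identical loci 92.1%. A stop codon within 200 nt was found for 41.5% and 46.4%, and 73.1% and 79.3% had at least 90% of their bases in 1 block. Other motifs and coding sequence alone gave density ratios of 1.23 and 1.24 (DRACH), 1.08 and 1.08 (GTCC) and 1.27 and 1.33 (GGAC, coding).

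Equal list sizes changed none of the 11 values beyond its interval: of the 913 broad DMSO peaks 911 were among the top-scoring 13001. The cut by score thus removed almost only shorter peaks. It could hardly change the number of broad ones, and what list size or depth does to their ratio was not tested. No paired analysis was possible because the replicates of a treatment are combined in 1 list, and for the same reason no replicate could be left out. Depth limits could not be assessed without counts. A peak list gives no level of methylation, and a split peak can differ from a broad one by 1 step of 25 nt.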
